A study of Mus musculus with 6 samples.

Results

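The amino acid transporter genes were the 63 rows of a table of 24028 genes whose symbol begins with Slc1a, Slc3a, Slc6a, Slc7a, Slc36a, Slc38a or Slc43a, with Slc7a11 and Slc38a4 left out. Of these, 60 are solute carriers or their partner subunits and 3 (Slc7a6os, Slc36a1os and Slc6a19os) are genes named only for lying opposite a carrier. Counts of transporters below include these 3 where they were tested. Messenger RNA was counted in C2C12 cells, an immortalised mouse myoblast line, from 1 clone, MMH6, that was kept under puromycin selection and carries a doxycycline-inducible, codon-altered transgene. The transgene, MMH, fuses the homeodomain-bearing part of mouse Dux, an activator of cleavage-stage genes, to the carboxy-terminal part of human DUX4. The 3 uninduced cultures received no doxycycline, and the 3 induced cultures received 2 µg/ml for either 18 h (series text) or 36 h (sample protocol), which the labels do not settle. All 6 carry the transgene, and doxycycline without it was not analysed here, so the drug and the transgene cannot be told apart.

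Amino acids cross membranes on carriers that differ in substrate, driving ion and membrane. Sodium-coupled carriers such as those of Slc1, Slc6 and Slc38 concentrate their substrates. Light chains of Slc7 reach the cell surface joined to a heavy chain of Slc3 and mostly exchange one amino acid for another. Carriers of the lysosome, among them Slc36a1, Slc38a7 and Slc38a9, move amino acids out of that organelle or report on its content to mTORC1, the growth-promoting kinase complex. Several surface carriers are known targets of ATF4, the transcription factor that amino acid shortage and other stresses raise.

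The libraries held 21.5 to 24.5 M counts. Values below are CPM (counts divided by the library size and multiplied up to 1 M) on library sizes scaled with TMM factors, which averaged 1.40 ± 0.00525 without doxycycline and 0.716 ± 0.00375 with it (SD, n = 3). Because the scaling factors differ this much between the groups, a direction close to 0 depends on them, and each transporter whose direction turned when library size was the only scaling is named. Of the myoblast markers Myod1, Myf5, Des, Cdh15, Myog and Pax7, 5 of 6 passed the count filter and Pax7 was at 0.0318 CPM in uninduced cells. Together they held 1624 to 1632 CPM per uninduced library and 821 to 856 CPM per induced one, and all 5 tested ones fell. Neuronal markers summed to 76.9 to 83.0 and 115 to 124 CPM, with Rbfox3 and Snap25 at 0 in every uninduced library. Of the 4 tested, Tubb3 (0.75, but -0.21 with library size alone), Syt1 (3.64) and Slc17a7 (3.12) were higher and Map2 (-0.76) lower on the log2 scale. Adipocyte markers went from 0.389 to 0.582 up to 6.83 to 7.96 CPM, nearly all Fabp4 (3.91), with Lep at 0 throughout. Endothelial markers went from 0.0647 to 0.459 up to 2.05 to 2.41 CPM, with Pecam1 (3.54) and Tek (2.94) higher. Astrocyte markers summed to 0.150 to 0.229 and 0.228 to 0.324 CPM with Aqp4 at 0 throughout, leukocyte markers to 0.808 to 1.29 and 1.42 to 1.60 CPM, and epithelial markers to 0.459 to 0.658 and 0.402 to 0.582 CPM. The part of these markers' changes in the results below was not tested. In these bulk libraries a change in the share of expressing cells and a change in RNA per cell cannot be told apart.

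Relative to the middle of all genes, induced cells had more RNA of the glutamine carriers Slc1a5 and Slc38a2 and of the large neutral amino acid exchanger (Slc7a5 with its heavy chain Slc3a2), the creatine carrier Slc6a8 and the lysosomal Slc7a14. They had less of the taurine carrier Slc6a6, the glutamate carrier Slc1a3, the arginine carrier Slc7a1 and the system A carrier Slc38a1. Both tested Slc36 carriers, Slc36a1 and Slc36a4, were also lower. Of the 63 genes, 31 had enough counts to be tested. With edgeR's quasi-likelihood test at a Benjamini-Hochberg adjusted p of 0.05, 24 of the 31 were called, or 77.4%, against 82.5% of all 12969 tested genes. Of these, 11 were higher (35.5%, against 41.3% of all tested genes) and 13 lower (41.9%, against 41.2%). Among the 11 higher, 2 are the opposite-strand genes Slc7a6os and Slc36a1os, which are not carriers. A share of calls this near that of all genes is not a result about transporters. With 2-fold as a further condition 13 of the 31 stayed (41.9%, against 30.7% of all tested genes). They were 4 higher and 9 lower (12.9% and 29% of the 31), and of all 12969 tested genes 2333 were higher and 1648 lower. Of the 4 higher, 1 is the opposite-strand gene Slc36a1os. With so few genes this split is not read as a result about transporters. The median log2 fold change was -0.20 over the 31 and -0.01 over all tested genes. Without a count filter 54 of the 63 were fitted, 16 higher and 14 lower. The shares of all genes called under that setting are not given, so these counts are not read as a result about transporters. Both medians turned to a log2 value just above 0, at 0.096 over the 54 and 0.095 over all 18589 genes fitted. The groups did not overlap for 25 of the 31 (80.6%, against 83.1% of all tested genes).

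With library size as the only scaling, 4 of the 31 were higher and 27 lower, against 15.2% higher and 76.7% lower of all tested genes. Under that scaling the median over all tested genes was -0.97 and that over the 31 was -1.16 on the log2 scale. The 4 genes higher under both scalings were Slc7a14, Slc36a1os, Slc1a5 and Slc6a8, and all 13 genes called lower with TMM were lower under both. Of the 4, Slc36a1os is not a carrier and passed the count filter only through its induced counts. The other 7 that rose with TMM, namely Slc6a9, Slc7a6os, Slc3a2, Slc38a2, Slc7a5, Slc1a4 and Slc38a6, were lower with library size alone, as were the 7 not called. Their rise is therefore relative to the middle of all genes. As a share of all counts, the 63 genes held 0.249% ± 0.00295 without and 0.151% ± 0.00229 with doxycycline (SD, n = 3). Summed on TMM-scaled sizes they came to 1802, 1781 and 1761 CPM without and 2145, 2085 and 2105 CPM with doxycycline. That is a log2 difference of 0.25, with 2-sided exact permutation p = 0.1, the smallest that 3 against 3 libraries allow. Slc38a2 alone made up much of the sum, and without it the log2 difference was 0.08.

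**Figure D1:**
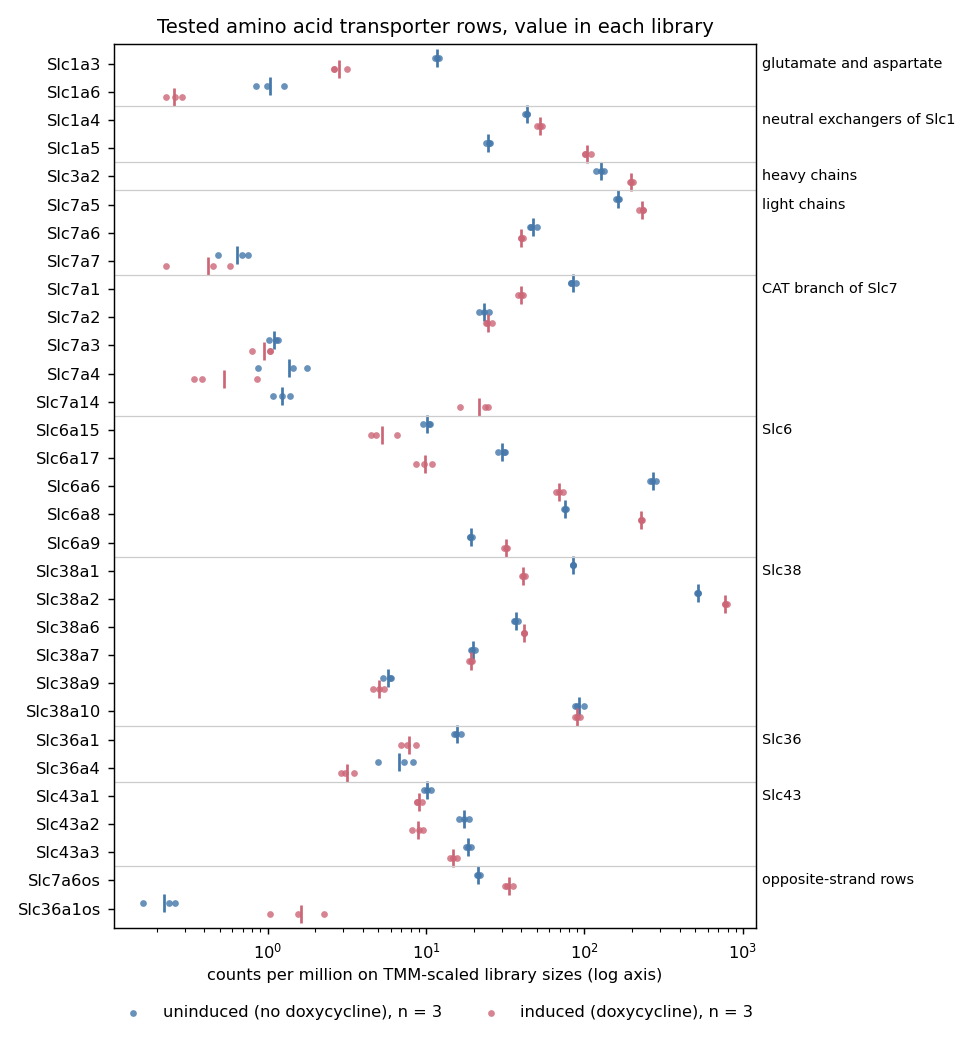
CPM of each of the 31 tested genes in each library on a log axis, grouped by family and role, with 3 uninduced (blue) and 3 induced (red) points and a bar at each group's mean. Slc7a14 sits near 1 CPM without and near 20 CPM with doxycycline, whereas Slc6a6 drops from near 300 to below 100 CPM.

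**Figure D2:**
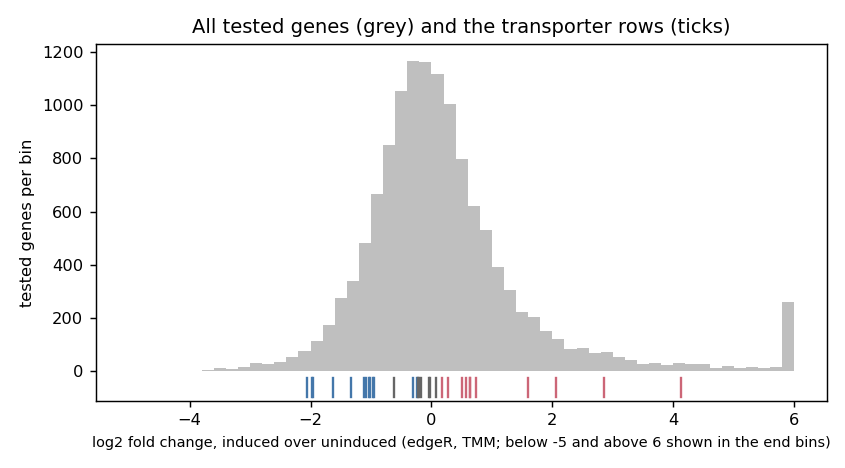
Histogram of the log2 fold change of all 12969 tested genes (grey, genes per bin). A tick marks each of the 31 tested genes of the set, including Slc7a6os and Slc36a1os. Ticks are red for higher, blue for lower and grey for not called. The ticks run from -2.07 to 4.13, within the range of all genes, and the end bins hold the genes beyond the axis.

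The genes of the Slc1 family are given by substrate. On TMM-scaled sizes its neutral amino acid exchangers Slc1a5 and Slc1a4 rose, Slc1a4 being lower with library size alone. The 2 tested glutamate carriers, Slc1a3 and Slc1a6, fell under both scalings. Slc1a6 passed the count filter only through its uninduced counts, so its test adds no support. The untested glutamate carrier Slc1a7 went the other way, on few counts, so no division by substrate is drawn. Slc1a5, the exchanger known as ASCT2 that brings in glutamine, lies at chr7:16781334-16798274 (GRCm38). It was at 25.1, 25.2 and 23.9 CPM in the uninduced libraries and 110.1, 101 and 101 CPM in the induced libraries. Every induced library was about 4 times as high as any uninduced one, with no overlap. It had a change of 2.07 ± 0.05 on the log2 scale (SE, adjusted p = 8.9e-21 in edgeR), or 4.19-fold, and 1.10 on the log2 scale with library size alone. Slc1a4, its relative ASCT1 for serine, alanine and threonine, rose less, from 43.1 ± 0.632 to 52.3 ± 1.98 CPM (SD, n = 3), with a change of 0.28 ± 0.05 on the log2 scale (SE, adjusted p = 3.4e-05 in edgeR). It was at -0.69 with library size alone.

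Slc1a3, the glutamate and aspartate carrier GLAST of astroglia, lies at chr15:8634124-8710807. It was at 11.7, 12.1 and 11.4 CPM in the uninduced libraries and 2.62, 3.17 and 2.64 CPM in the induced libraries. The groups were far apart, with a change of -2.07 ± 0.12 on the log2 scale (SE, adjusted p = 1.2e-13 in edgeR), the largest fall among the tested transporters. Slc1a6, the glutamate carrier of cerebellar Purkinje cells, was sparse at 0.988, 0.841 and 1.28 CPM in the uninduced libraries and 0.228, 0.259 and 0.287 CPM in the induced libraries. Its induced libraries held 4, 4 and 5 counts, and it fell by 1.98 ± 0.39 on the log2 scale (SE, edgeR adjusted p = 6.1e-05). Slc1a7, a retinal glutamate carrier with too few counts to be tested, had 1, 1 and 1 uninduced counts and 12, 8 and 9 induced counts. Summed, that is a ratio of 18.2 on scaled sizes with an exact 95% counting interval of 5.64 to 93.3, which covers counting error only. The astrocyte markers beside these genes summed to at most 0.324 CPM in a library. The other glutamate carriers, Slc1a1 and Slc1a2, had at most 2 counts in a library.

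The surface heteromeric exchangers need a heavy chain, and its main gene rose together with the light chain LAT1 on TMM-scaled sizes, though both were lower with library size alone. Slc3a2, the heavy chain 4F2hc or CD98, at chr19:8706882-8723369, was at 119, 128 and 132 CPM in the uninduced libraries and 196, 201 and 193 CPM in the induced libraries. All induced values were above all uninduced ones, with a change of 0.64 ± 0.04 on the log2 scale (SE, adjusted p = 2.8e-12 in edgeR). Slc7a5, the light chain LAT1 for leucine and other large neutral amino acids, at chr8:121881146-121907686, was at 158, 163 and 164 CPM in the uninduced libraries and 235, 219.6 and 236 CPM in the induced libraries. It rose by 0.51 ± 0.04 (SE, edgeR adjusted p = 6.7e-11), again without overlap. With library size alone these genes were at -0.33 and -0.46. The log2 ratio of Slc7a5 to Slc3a2 counts, which no scaling between libraries changes, was 0.409, 0.352 and 0.310 without doxycycline and 0.260, 0.126 and 0.288 with it. All induced ratios were below the uninduced ones, by 0.13 on average, with 2-sided exact permutation p = 0.1, the smallest possible here.

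Of the other light chains, 1 was lower and 1 was not called. Slc7a6, an exchanger of cationic for neutral amino acids, went from 47.1 ± 2.62 to 40.0 ± 0.593 CPM (SD, n = 3), and it fell by 0.23 ± 0.06 (SE, edgeR adjusted p = 5.8e-04). Slc7a7, its epithelial relative, had 25, 15 and 21 uninduced counts and 8, 9 and 4 induced counts, and its -0.62 ± 0.40 was not called (SE, edgeR adjusted p = 0.152). The gene Slc7a6os lies beside Slc7a6 and shares no exon base with it in GENCODE vM21. It was at 21.1, 21.2 and 21.9 CPM in the uninduced libraries and 31.7, 32.6 and 35.6 CPM in the induced libraries and rose by 0.64 ± 0.06 (SE). So it and Slc7a6 moved in opposite directions with TMM, and it was at -0.33 with library size alone. Slc3a1, the heavy chain of kidney and gut, had 2, 0 and 2 uninduced counts and 2, 4 and 6 induced counts, and exons of Prepl on the opposite strand cover 26.5% of its exon bases. Its light chain Slc7a9 had none in any library, and neither did Slc7a10 or Slc7a12. Slc7a8, Slc7a13 and Slc7a15 had at most 3 counts in a library.

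**Figure D3:**
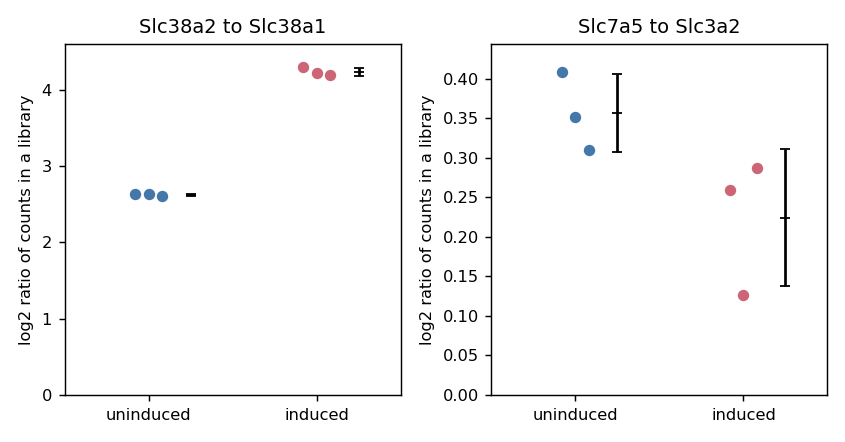
Log2 ratio of counts within each library for the system A pair (left) and the LAT1 light and heavy chain (right), with each library as a point and the mean and SD of 3 libraries as a bar, on vertical axes of different range. The left ratio goes from 2.62 to 4.24 on average, whereas the right one moves only from 0.357 to 0.224.

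The cationic branch of Slc7, whose members carry arginine and lysine without a heavy chain, changed in both directions. Slc7a1, the widespread arginine carrier CAT1, at chr5:148327410-148399904, was at 87.9, 82.7 and 81.7 CPM in the uninduced libraries and 40.9, 39.5 and 38.3 CPM in the induced libraries. The induced values lay well below the uninduced ones without overlap, with a change of -1.09 ± 0.05 on the log2 scale (SE, adjusted p = 1.7e-15 in edgeR). Slc7a14, a lysosomal member best known from retina and brain, at chr3:31202854-31310567, was at 1.23, 1.39 and 1.08 CPM in the uninduced libraries and 23.5, 16.5 and 24.7 CPM in the induced libraries. It was the largest rise of the 31, a change of 4.13 ± 0.17 on the log2 scale (SE, adjusted p = 7.4e-14 in edgeR), or 17.5-fold. Induced replicate 2 was the lowest of the induced values and still over 10 times the highest uninduced one. Among all tested genes, 417 had a larger log2 fold change.

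Slc7a4, a member with no established transport activity, was at 0.868, 1.46 and 1.77 CPM in the uninduced libraries and 0.855, 0.388 and 0.344 CPM in the induced libraries. The groups came close, the highest induced value being 0.855 and the lowest uninduced one 0.868 CPM, and the change was -1.33 ± 0.37 (SE, edgeR adjusted p = 0.00213). Slc7a4 passed the count filter only through its uninduced counts, so the test adds no support for the fall. On the opposite strand, exons of P2rx6 cover 13.3% of its exon bases, and P2rx6 fell by 1.94 on the log2 scale. The TruSeq RNA kit named in the labels does not mark strand, so reads from the shared bases cannot be told apart, and their part in the fall of Slc7a4 was not tested. Slc7a2, a cationic carrier of muscle and liver, was at 0.08 ± 0.07 and Slc7a3 at -0.22 ± 0.27 on the log2 scale, neither called (SE, edgeR adjusted p = 0.302 and 0.459).

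The Slc6 family carries neurotransmitters, osmolytes and neutral amino acids with sodium and chloride. Among its 20 carriers, 5 were tested, with 2 higher and 3 lower, of which Slc6a9 changed direction with library size alone. Slc6a6, the taurine carrier TauT, at chr6:91684048-91759063, was at 282, 267 and 259 CPM in the uninduced libraries and 66.5, 73.0 and 68.6 CPM in the induced libraries. It was among the more abundant transporters without doxycycline and every induced library lay far below every uninduced one, a change of -1.96 ± 0.05 on the log2 scale (SE, adjusted p = 2.8e-21 in edgeR). Slc6a8, the creatine carrier of muscle and brain, at chrX:73673133-73682502, went the other way. It was at 76.8, 74.9 and 74.5 CPM in the uninduced libraries and 231, 228 and 227 CPM in the induced libraries. The libraries of each group lay within a few CPM of each other, with a change of 1.60 ± 0.04 on the log2 scale (SE, adjusted p = 7.6e-21 in edgeR), or 0.64 with library size alone.

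Slc6a17, a vesicular carrier of neutral amino acids known from neurons, was at 31.5, 30.9 and 28.6 CPM in the uninduced libraries and 10.9, 8.67 and 9.76 CPM in the induced libraries. It fell about 3-fold, by 1.63 ± 0.08 on the log2 scale (SE, edgeR adjusted p = 6.0e-15), with the groups far apart. Its relative Slc6a15, for branched-chain amino acids and proline, went from 10.2 ± 0.548 to 5.29 ± 1.09 CPM (SD, n = 3), -0.96 ± 0.12 on the log2 scale. The glycine carrier GlyT1, Slc6a9, was at 18.9, 19.0 and 19.4 CPM in the uninduced libraries and 32.4, 32.2 and 31.1 CPM in the induced libraries. It rose by 0.74 ± 0.06 (SE, edgeR adjusted p = 1.2e-10) with no overlap, and was at -0.22 with library size alone. Exons of Ccdc24 and Gm17114 on the opposite strand cover 27.8% and 9.94% of its exon bases. Ccdc24 fell by 1.16, and the part of shared reads in the change of Slc6a9 was not tested. The proline carrier Slc6a7 did not pass the filter, with 11, 9 and 7 uninduced counts and 1, 2 and 4 induced counts, a ratio of 0.488 with a 95% counting interval of 0.179 to 1.15. The monoamine carriers Slc6a2, Slc6a3 and Slc6a4 and the betaine and GABA carriers Slc6a12 and Slc6a13 had at most 3 counts in a library, as had Slc6a18, Slc6a19 and Slc6a20b. Slc6a20a reached 6 and Slc6a21 reached 4 counts in 1 induced library each, and Slc6a5, Slc6a11 and Slc6a14 had none.

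In the Slc38 family the paired system A carriers parted. Slc38a2, known as SNAT2 and a carrier of glutamine, alanine and other small neutral amino acids that cells raise under amino acid shortage, lies at chr15:96687392-96699728. It was at 524, 522 and 512 CPM in the uninduced libraries and 792, 765 and 767 CPM in the induced libraries, with a change of 0.58 ± 0.04 on the log2 scale (SE, adjusted p = 1.0e-12 in edgeR). Slc38a1, known as SNAT1, lies near it at chr15:96571418-96643438 and was at 84.3, 84.4 and 84.2 CPM in the uninduced libraries and 40.3, 41.0 and 42.1 CPM in the induced libraries. All its induced values were below 43 CPM and all its uninduced ones above 84 CPM, with a change of -1.03 ± 0.05 on the log2 scale (SE, adjusted p = 1.3e-15 in edgeR). The log2 ratio of Slc38a2 to Slc38a1 counts was 2.64, 2.63 and 2.61 without doxycycline and 4.30, 4.22 and 4.19 with it. This shift of 1.61 holds under any scaling between libraries, while the rise of Slc38a2 alone does not, as Slc38a2 was at -0.39 with library size alone (2-sided exact permutation p = 0.1 for the ratio, the smallest possible).

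Slc38a7, Slc38a9 and Slc38a10 were not called with TMM, but all 3 were called lower with upper-quartile scaling, at -0.19, -0.34 and -0.17 on the log2 scale, and with library size alone. Slc38a9, the lysosomal arginine sensor upstream of mTORC1, was at 5.93, 5.98 and 5.38 CPM in the uninduced libraries and 5.02, 5.44 and 4.65 CPM in the induced libraries. Its groups overlapped, and -0.20 ± 0.12 was not called (SE, edgeR adjusted p = 0.143). Slc38a7, a lysosomal glutamine exporter, was at -0.04 ± 0.07 and Slc38a10, of which less is known, at -0.03 ± 0.05, neither called (SE, edgeR adjusted p = 0.596 and 0.612). Slc38a6, another relative, rose slightly, from 36.9 ± 1.32 to 41.4 ± 0.132 CPM (SD, n = 3), 0.17 ± 0.06 on the log2 scale (SE, edgeR adjusted p = 0.00758). That call was lost with upper-quartile scaling (0.02, edgeR adjusted p = 0.713) and without a count filter (0.10, edgeR adjusted p = 0.158), and the value was -0.80 with library size alone. Slc38a3, a glutamine carrier of liver, kidney and astrocytes, had 1, 1 and 3 uninduced counts and 23, 9 and 14 induced counts. It was too sparse for the filter, and its summed ratio was 17.3 with a 95% counting interval of 6.90 to 55.8. Slc38a8 reached 5 counts and Slc38a11 1 count in a library, and Slc38a5 had none.

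Both tested Slc36 carriers fell about 2-fold. Slc36a4, the carrier of proline and tryptophan, was at 8.23, 7.21 and 4.95 CPM in the uninduced libraries and 3.08, 3.49 and 2.93 CPM in the induced libraries. Uninduced replicate 3 was the lowest of its group and still above every induced library, with a change of -1.11 ± 0.18 on the log2 scale (SE, adjusted p = 2.1e-05 in edgeR). Slc36a1, which exports small amino acids from lysosomes, went from 15.7 ± 0.783 to 7.76 ± 0.844 CPM (SD, n = 3), -1.01 ± 0.10 on the log2 scale. The gene Slc36a1os, beside it with no shared exon base in GENCODE vM21, was at 0.239, 0.259 and 0.164 CPM in the uninduced libraries and 2.28, 1.55 and 1.03 CPM in the induced libraries. It rose by 2.85 ± 0.37 (SE, edgeR adjusted p = 1.9e-07) from only 8, 8 and 5 uninduced counts. Slc36a1os passed the count filter only through its induced counts, so its test adds no support for the rise. Slc36a2 and Slc36a3 had at most 2 counts in a library, and Slc6a19os had none. Among the sodium-independent Slc43 genes, the large neutral amino acid carrier Slc43a2 (LAT4) went from 17.4 ± 1.23 to 8.93 ± 0.742 CPM (SD, n = 3), -0.96 ± 0.09 on the log2 scale. Slc43a3, which carries purine bases rather than amino acids, fell by 0.31 ± 0.08. Slc43a1 (LAT3) was at -0.17 ± 0.10, not called although its groups did not overlap (SE, edgeR adjusted p = 0.0988), and it was called lower without a count filter (-0.25) and with upper-quartile scaling (-0.32).

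**Figure D4:**
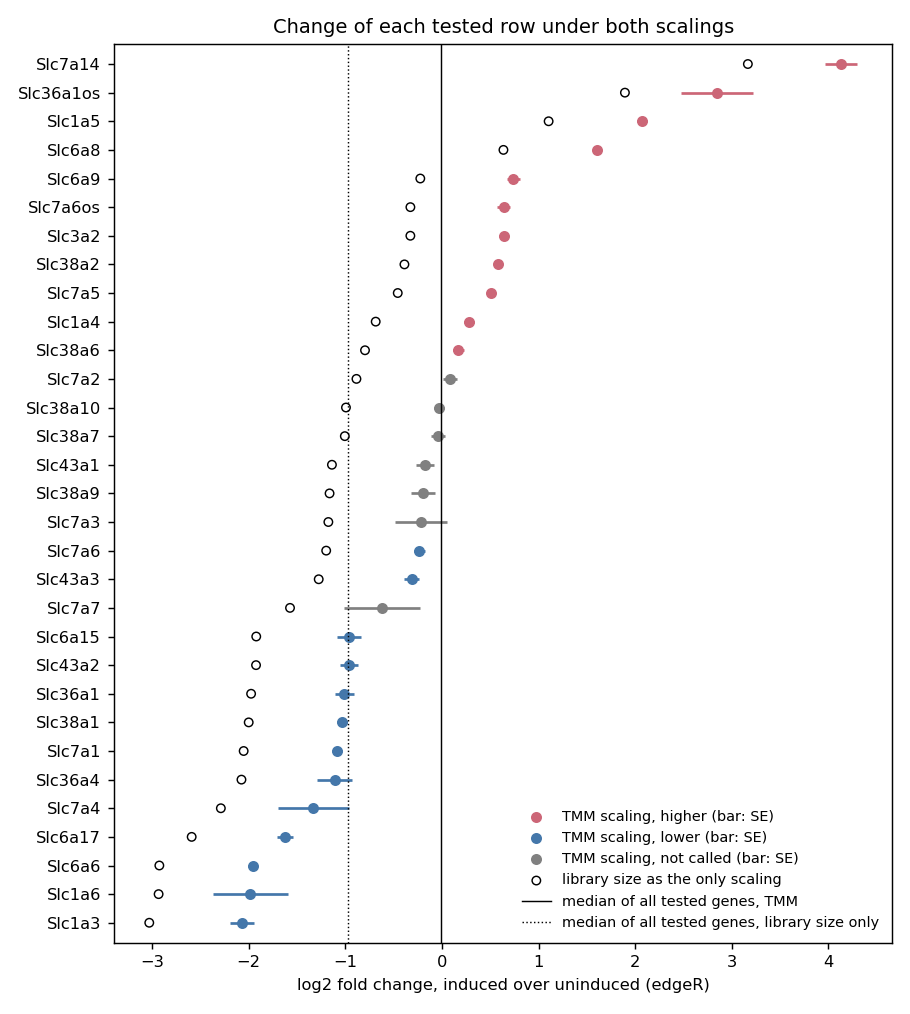
Log2 fold change of each tested gene with its SE under TMM scaling (filled) and with library size alone (open), beside the median of all tested genes under each (solid and dotted lines). The 4 genes at the top lie above 0 under both scalings, and the 7 other red ones fall below 0 when library size alone is used.

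To compare levels between genes, mean CPM was divided by the kilobases of merged exons in GENCODE vM21. In uninduced cells the order was led by Slc38a2 at 58.8 CPM per kb, then Slc7a5 at 43.6, Slc3a2 at 35.8 and Slc6a6 at 31.9. In induced cells Slc38a2 (87.7), Slc7a5 (62.0) and Slc3a2 (55.7) kept these places and Slc6a8 (43.9 CPM per kb) came next. Slc6a6 stood at 8.20 CPM per kb in induced cells, below Slc1a5 at 24.9. Merged exons overstate the length of the transcript in use where a gene has several, so these levels are approximate. Of the 32 genes that were not tested, 9 had no count in any library, which allows up to 0.0983 CPM in an uninduced and 0.194 CPM in an induced library (3 counts).

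Promoter windows from RefSeq (GRCm38.p6, 250 bases before to 50 after a start site) were found for 45 of the 63 genes, 21 of them tested. The tested genes Slc1a5, Slc6a6, Slc6a8, Slc6a15, Slc7a2, Slc7a3, Slc7a4, Slc7a5, Slc38a1 and Slc43a3 had no window and were not searched. The windows were searched on both strands for the core TGATGNAA of the element through which ATF4 acts and for GATTNAATC, the core of the Dux site. The first was in 3 of 31 windows of tested genes (9.68%), against 3.97% of 32851 windows of all genes. The windows with a match belong to 2 genes, Slc1a4 and Slc7a7, and the 2 windows of Slc7a7 overlap and share a match, which is thus counted in both. Over the windows of all 45 genes, tested or not, 4 of 64 held it. The second was in no window of a tested gene, against 0.268% of all windows. A match describes letters only, and a missing match says nothing about binding outside these windows. The window of Slc1a4 is shown for its match at the start site, and those of Slc38a2, the most abundant transporter, and Slc7a14, the largest rise, for comparison. They lie on the minus strand at chr11:20332664-20332963, chr15:96699679-96699978 and chr3:31310270-31310569 and are written 5′ to 3′ in the direction of transcription. Capitals mark the match to the first core, which begins at -4 from the start site and reads on the opposite strand.
Slc1a4: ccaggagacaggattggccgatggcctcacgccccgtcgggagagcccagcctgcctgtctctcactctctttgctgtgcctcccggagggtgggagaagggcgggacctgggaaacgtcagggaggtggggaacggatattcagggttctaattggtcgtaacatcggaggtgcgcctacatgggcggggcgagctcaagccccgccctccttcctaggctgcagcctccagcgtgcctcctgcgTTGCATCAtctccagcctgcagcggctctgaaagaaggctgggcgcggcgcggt
Slc38a2: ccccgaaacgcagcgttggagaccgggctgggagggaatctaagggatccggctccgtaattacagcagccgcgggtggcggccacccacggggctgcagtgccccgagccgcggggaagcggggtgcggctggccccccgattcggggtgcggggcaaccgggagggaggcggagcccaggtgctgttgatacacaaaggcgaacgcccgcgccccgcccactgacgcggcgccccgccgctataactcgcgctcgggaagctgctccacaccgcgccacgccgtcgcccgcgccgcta
Slc7a14: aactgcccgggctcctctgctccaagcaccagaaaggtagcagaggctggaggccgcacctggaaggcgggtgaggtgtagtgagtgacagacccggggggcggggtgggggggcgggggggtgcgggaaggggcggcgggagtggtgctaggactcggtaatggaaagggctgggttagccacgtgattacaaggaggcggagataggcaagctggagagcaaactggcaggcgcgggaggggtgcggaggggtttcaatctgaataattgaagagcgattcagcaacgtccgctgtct
The windows of Slc38a2 and Slc7a14 hold neither core.

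Other genes of amino acid handling were read from 5 lists. Among enzymes of amino acid synthesis, 10 of 17 tested genes were higher and 7 lower (58.8% and 41.2%, against 41.3% and 41.2% of all tested genes), with a median log2 fold change of 0.24. Glul, which makes glutamine from glutamate, rose from 45.6 ± 0.680 to 221 ± 6.52 CPM (SD, n = 3), 2.27 ± 0.04 on the log2 scale (SE). Cth, the last enzyme of cysteine synthesis from methionine, rose by 2.19 ± 0.06. Pycr1, an enzyme of proline synthesis, fell by 0.73 ± 0.10. With library size alone this list had 3 higher and 14 lower (17.6% and 82.4%, against 15.2% and 76.7% of all tested genes). Among genes of amino acid breakdown 11 of 21 were higher and 5 lower (52.4% and 23.8%, beside the same 41.3% and 41.2%), with a median of 0.25. With library size alone 4 were higher and 16 lower (19.0% and 76.2%, beside 15.2% and 76.7%). Arg2, the mitochondrial arginase, rose from 0.635 ± 0.125 to 11.6 ± 0.662 CPM (SD, n = 3), by 4.18 ± 0.16, and Dbt, of the branched-chain keto acid dehydrogenase, by 1.68 ± 0.06. Bcat2, which starts the breakdown of branched-chain amino acids in mitochondria, fell by 1.96 ± 0.09 and Gcsh, of the glycine cleavage system, by 2.33 ± 0.11.

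A list of the kinase GCN2 and its relatives, ATF4 and genes known to lie downstream of it, such as Trib3, Chac1 and Ddit3, had 13 of 20 genes higher and 3 lower (65.0% and 15.0%, beside 41.3% and 41.2% of all tested genes), with a median of 0.46. With library size alone 5 were higher and 15 lower (25% and 75%, beside 15.2% and 76.7%). Atf4 itself rose from 356 ± 14.0 to 495 ± 14.4 CPM (SD, n = 3), 0.47 ± 0.04 on the log2 scale (SE), and was at -0.49 with library size alone. The stress-induced factor Atf3 rose by 4.48 ± 0.07 and Ppp1r15a, which restores translation by directing dephosphorylation of eIF2α, by 2.70 ± 0.05. Impact, an inhibitor of GCN2, fell by 0.85 ± 0.06 and Eif2ak2, the kinase PKR, by 0.84 ± 0.13. A list on amino acid sensing upstream of mTORC1 also holds parts of mTORC1 itself, such as Mtor and Deptor, and its regulators Tsc2 and Rheb. Of its 38 tested genes, 13 were higher and 20 lower (34.2% and 52.6%, beside 41.3% and 41.2%), with a median of -0.16. With library size alone 6 were higher and 32 lower (15.8% and 84.2%, beside 15.2% and 76.7%). Sesn2, the leucine sensor, rose from 23.0 ± 0.972 to 185 ± 11.6 CPM (SD, n = 3), 3.01 ± 0.05, and Sesn3 rose by 2.04 ± 0.09. Deptor, which binds and inhibits mTOR, fell by 2.09 ± 0.07 and Lamtor1, of the lysosomal scaffold, by 1.31 ± 0.05.

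Amino acid carriers of other families included 5 of 16 tested genes higher and 8 lower (31.2% and 50%, beside 41.3% and 41.2% of all tested genes), with a median of -0.11. With library size alone 4 were higher and 12 lower (25% and 75%, beside 15.2% and 76.7%). The vesicular glutamate carrier Slc17a7 rose by 3.12 ± 0.35 to 1.86 ± 0.545 CPM, and the lysosomal cysteine carrier Mfsd12 by 2.34 ± 0.09 on the log2 scale. Slc17a7 passed the count filter only through its induced counts. Slc25a12, the mitochondrial aspartate and glutamate carrier, fell by 1.61 ± 0.08, and Slc25a29, a mitochondrial carrier of basic amino acids, by 1.49 ± 0.21.

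**Figure D5:**
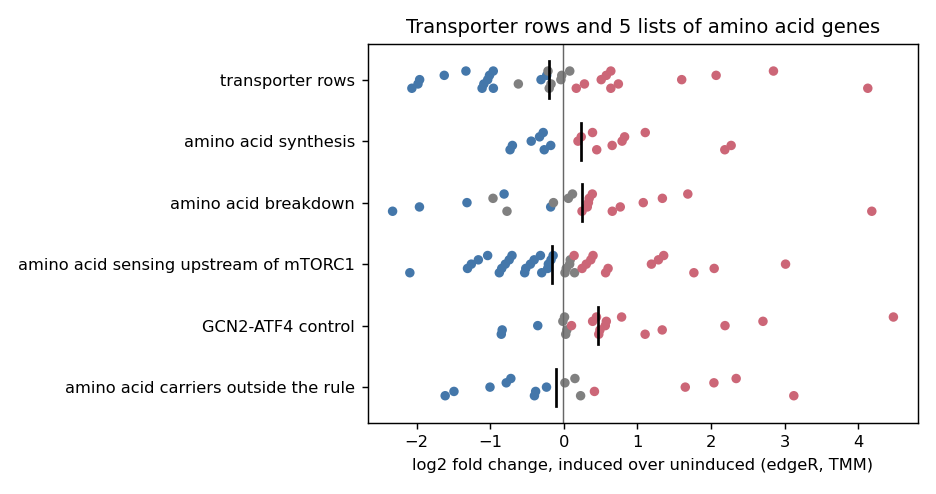
Log2 fold change of each tested gene among the transporter genes and in the 5 other lists (red higher, blue lower, grey not called), with a black bar at each list's median and a vertical line at the median of all tested genes. The list medians lie between -0.20 and 0.46, and every list holds genes on both sides of the line.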

How the data were processed

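Polyadenylated RNA of 6 cultures was sequenced, and the deposited table holds raw counts of reads per gene. Per the submitters' processing notes, the tools were CASAVA, TopHat2 2.0.12 and Bowtie2 2.2.3, and the build was mm10. For the counting tool and gene models the sources used here give no name, and the TruSeq RNA kit in the labels does not mark strand. Opposite-strand exons also cover 9.18% of the exon bases of Slc43a2, 7% of Slc7a7, 6.95% of Slc7a2 and 5.72% of Slc38a10. Smaller parts of Slc38a9 and Slc6a6 are covered too, and the part of such reads was not tested. The series text gives separate cultures of 1 clone, so the spread between libraries is that of this clone.

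Groups came from the sample titles. The whole table was fitted in R 4.3.3 with edgeR 4.0.16 (filterByExpr, TMM, glmQLFit with robust=TRUE, glmQLFTest, group as the only term), with p-values adjusted over the whole table by Benjamini-Hochberg. The scripts were tested on simulated data in which few genes changed, so that test does not check the scaling between the groups. SE is derived from the F statistic. Every tested member is named. Values per library are given for the 8 largest rises and falls and for Slc7a5 and Slc38a9, and of each other list the 2 largest rises and falls and Atf4 are named, except that some genes are not reported here. Members and lists were chosen with earlier results of these data known. Alternatives were DESeq2 1.42.0, limma-voom (limma 3.58.1), other scalings and filters, fits without robust estimation or with replicate number as a block, leaving out each library, and 2 sums chosen after seeing the data. Coordinates are RefSeq's on GRCm38.p6, the assembly of mm10, and all 63 members matched by Entrez ID.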

Additional observations from a re-analysis of the deposited data

How the results depend on the processing

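With DESeq2, limma-voom, RLE factors, robust=FALSE and a replicate block, the 31 named transporters and the named genes of other lists kept direction and side of the threshold. The replicate block gave 11 of the 31 tested genes higher and 13 lower, as without it. The 11 include Slc7a6os and Slc36a1os, which are not carriers. The block took the higher calls of the 5 other lists together from 52 to 54. Same-numbered libraries deviated together at r = 0.13, -0.04 and 0.20, and libraries of unlike number at r from -0.20 to 0.05. With so few libraries these values do not settle whether the numbers mark a pairing. At least 2-fold left 4 higher. Library size alone gave 4 higher and 27 lower, and 22 higher and 89 lower among the 5 other lists together, beside 15.2% higher and 76.7% lower of all tested genes. That scaling made most genes lower, in the set as over all genes. It turned Slc7a2 (-0.88), Slc6a9 (-0.22), Slc3a2 (-0.33), Slc7a5 (-0.46), Slc1a4 (-0.69), Slc38a6 (-0.80), Slc7a6os (-0.33), Slc38a2 (-0.39), Atf4 (-0.49) and the summed CPM (-0.72). Upper-quartile factors gave 10 transporters higher and 17 lower, with a median of -0.34 over the 31 and -0.16 over all tested genes. That scaling turned Slc7a2 (-0.065) and took the sum to 0.10. It also raised the lower calls from 5 to 8 for amino acid breakdown and from 3 to 5 for the GCN2 and ATF4 list. For upper-quartile factors, the replicate block and fits without 1 library, the shares of all genes called are not given. Counts under these settings are therefore not read as a result about transporters or the lists. Without Slc38a2 the sum was at 0.084. Leaving out 1 library each changed no call of the named genes and gave 11 to 12 transporters higher and 13 lower. Slc38a10, not called, ranged from -0.075 to 0.029 and turned only without uninduced replicate 1. The ratios kept their direction. Without a count filter more genes were tested, and 16 transporters were higher and 14 lower, with no share of all genes given beside these counts. Among the transporters already tested with the filter, Slc43a1 became called lower (-0.25) and Slc38a6 lost its call (0.10).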
